A study of Mus musculus with 6 samples.

Results

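The miRNAs described here are those associated with the 3 main cell types of the vessel wall: miR-126a of endothelium, the miR-143 and miR-145a pair of smooth muscle, and the miR-199 and miR-214 miRNAs of fibroblasts. They were taken by name, 9 in all, from a table of 620 miRNAs. Of the 9 names, 8 had a row, and miR-199b-3p was not analysed here. The rows of miR-126a-5p and miR-126b-3p held the same count in every library, so the 8 rows stand for 7 sets of reads. The data are small RNA sequences of extracellular vesicles from peripheral blood mononuclear cells (PBMCs) of wild-type mice. Such vesicles are small membrane-bound particles, and PBMCs are the lymphocytes and monocytes of blood. In 3 libraries the cells were untreated (control 1 to 3) and in 3 they were labelled as stimulated with IS (IS 1 to 3). The labels do not write out this abbreviation, and they give no dose, time, strain or age. Whether replicates were separate animals or cultures is not stated either, so a p-value here refers only to the scatter among these 6 libraries, which could be technical.

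A miRNA is cut from a hairpin precursor, which yields a 5p and a 3p arm, and usually only 1 arm is kept in quantity while the other is degraded. The kept arm is loaded into an Argonaute protein and recognises messages through its seed, bases 2 to 8. In mice miR-126a lies within the endothelial gene Egfl7 and supports vessel integrity and growth signalling in endothelial cells, and it is also carried by platelets. The pair miR-143 and miR-145a is transcribed together and keeps smooth muscle cells in their contractile state. The miR-199a and miR-214 hairpins share the long transcript Dnm3os in mesenchymal cells and are known from fibrosis.

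The mature sequences show which of these names can be told apart by their reads. RefSeq sequences (GRCm38.p6) matched 6 of the 9 members, and the seed is in capitals in each, read 5′ to 3′.
miR-126a-3p: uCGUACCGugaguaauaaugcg
miR-126b-3p: cGCGUACCaaaaguaauaaugug
miR-126b-5p: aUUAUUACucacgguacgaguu
miR-199a-3p: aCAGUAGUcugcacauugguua
miR-199b-3p: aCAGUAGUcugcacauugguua
miR-199a-5p: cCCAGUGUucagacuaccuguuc
miR-214-3p: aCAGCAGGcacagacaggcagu
The sequences of miR-199a-3p and miR-199b-3p are identical, so a read of either arm could come from any of 3 hairpins, and they are the only pair here that shares a seed. The 2 strands of the Mir126 locus are both annotated: the Mir126a hairpin lies on chromosome 2 at 26591357 to 26591429 on the plus strand, and the Mir126b hairpin at 26591363 to 26591420 on the minus strand. The reverse complement of miR-126b-3p is contained in the Mir126a hairpin. The reverse complement of miR-126a-3p is not contained whole in the Mir126b hairpin, which falls 3 bases short of the end of this 22-base arm. Of the opposite-strand arms, miR-126b-5p covers 19 of the positions of miR-126a-3p and had its own, much lower counts.

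The Mir126a hairpin overlapped an annotated exon of Egfl7 (GENCODE annotation of GRCm38), on the same strand. Mir199a-2 (chromosome 1, 162217814 to 162217923, plus strand) and Mir214 (162223368 to 162223477) lie 5445 bases apart in exons of Dnm3os, opposite to an intron of Dnm3. Mir199a-1 (chromosome 9, 21496495 to 21496564, minus strand) and Mir199b (chromosome 2, 32318460 to 32318569, plus strand) lie opposite to introns of Dnm2 and Dnm1, genes of the same dynamin family. The build used by the authors is not given in the sources used here.

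Library totals ran from 125731 (IS 3) to 435468 (control 3) counts. Levels are given as CPM, the count scaled to a library total of 1000000, in which no length enters. A single count was worth 2.30 to 7.95 CPM, and 0 counts allow up to 3 counts, or 6.89 to 23.9 CPM. These limits, like all 95% intervals on counts below, cover counting error only. Control 3 and IS 2, 1 library of each group, stood apart from the other 4 in several members. They also stood apart in the miRNAs of leukocytes and red cells. Many results are therefore also given without both. In libraries of this kind, fewer vesicles from a cell type and fewer copies of a miRNA per vesicle cannot be told apart.

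The vessel wall miRNAs were abundant in these blood cell vesicles, and 3 of them carried nearly all of the signal. Together the 7 sets of reads made up 2.86, 3.44 and 2.13% of control libraries 1 to 3, and 2.26, 1.21 and 3.71% of IS libraries 1 to 3, with miR-126a-3p, miR-143-3p and miR-199a-3p holding 97.6% of these reads. The order of mean levels over the 6 libraries was miR-126a-3p (16182 CPM), miR-143-3p (7476), miR-199a-3p (1794), miR-199a-5p (396), miR-126a-5p (93.4), miR-145a-5p (47.3) and miR-214-3p (19.1). Each was above the next in 6 of 6 libraries, apart from miR-126a-5p, which was above miR-145a-5p in 4 of 6. By mean level miR-126a-3p ranked 14th and miR-143-3p 18th among the 620 rows.

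**Figure D1:**
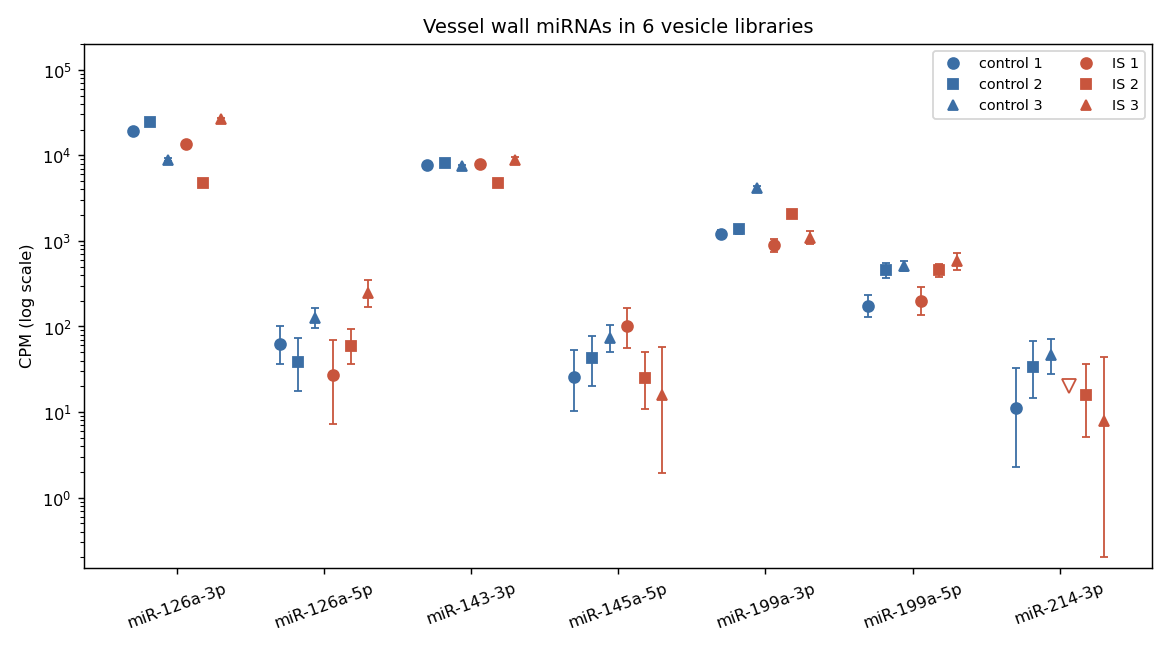
Level in CPM (log axis) of the 7 sets of reads in each of the 6 libraries, with exact 95% Poisson intervals. The open triangle marks 0 counts of miR-214-3p in IS 1, drawn at its limit of 20.1 CPM. Control 3 and IS 2 hold the lowest miR-126a-3p and the highest miR-199a-3p values, and miR-143-3p is nearly level apart from IS 2.

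Endothelial miR-126a-3p differed more within the groups than between them. Its level was 19339, 24423 and 8928 CPM in control 1 to 3 compared with 13398, 4774 and 26231 CPM in IS 1 to 3. The lowest values were those of control 3 and IS 2, the highest that of IS 3, and the groups overlapped across most of their range. The group means were 17563 ± 7898 and 14801 ± 10797 CPM (SD, n = 3 each). The log2 fold change (IS minus control) was -0.34 (SE 0.62, 95% interval -1.72 to 1.04, Benjamini-Hochberg adjusted p = 0.996, edgeR quasi-likelihood test). Without IS 2 the log2 fold change was 0.03, and without control 3 and IS 2 it was -0.38.

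The other arm, miR-126a-5p, held 17, 9 and 55 counts in control 1 to 3 compared with 4, 19 and 31 counts in IS 1 to 3. In CPM these were 62.9, 38.3 and 126.3 against 26.8, 59.9 and 246.6, so IS held both the lowest and the highest value. Its log2 fold change was 0.39 (SE 0.95, 95% interval -1.71 to 2.50), with values of -0.13 without control 2 and -0.87 without IS 3. The opposite-strand miR-126b-5p averaged 83.6 ± 34.5 CPM in the control libraries and 81.5 ± 69.4 CPM in the IS libraries (SD, n = 3 each), with a log2 fold change of -0.21 (SE 0.93). None of these arms passed the test.

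The 3p arm took nearly all reads of the miR-126a hairpin in every library. Its share of both arms was 99.7, 99.8 and 98.6% in control 1 to 3, against 99.8, 98.8 and 99.1% in IS 1 to 3. The 5p arm therefore made up the largest part in control 3 (55 of 3943 reads) and IS 2 (19 of 1534). There the 95% Wilson intervals of the 3p share were 98.2 to 98.9% and 98.1 to 99.2%. Both lay below those of control 1, control 2 and IS 1. So did the interval of IS 3, 98.7 to 99.3%, which overlapped those of control 3 and IS 2. The log2 ratio of 3p to 5p was 7.86 ± 1.59 in control and 7.26 ± 1.35 in IS (SD, n = 3 each). The difference of -0.60 gave an exact two-sided permutation p of 0.8, where 3 libraries against 3 allow no less than 0.1, and it was 0.09 without control 2.

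Smooth muscle miR-143-3p was the steadiest of the members. It stood at 7761, 8060 and 7438 CPM in control 1 to 3, against 7982, 4689 and 8924 CPM in IS 1 to 3. All libraries but IS 2 lay close together, and IS 2 was the lowest. Over the 6 libraries its coefficient of variation was 19.4%, and only 8 of the 206 miRNAs that passed the filter on low counts varied less (median 59.0%). The log2 fold change was -0.10 (SE 0.46, 95% interval -1.12 to 0.91, edgeR adjusted p = 0.996), and it was 0.06 without IS 2. Its other arm, miR-143-5p, had 2 counts in each of control 1, IS 1 and IS 2 and 0 in the other libraries, all under the limit of 3 counts.

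Its partner miR-145a-5p was scarce, with 7, 10 and 32 counts in control 1 to 3 compared with 15, 8 and 2 in IS 1 to 3. The corresponding levels were 25.9, 42.5 and 73.5 CPM and 101, 25.2 and 15.9 CPM, so the IS values reached above and below those of control. Between groups the log2 fold change was 0.18 (SE 1.10, 95% interval -2.26 to 2.62). Its sign was not settled: it was -0.02 with library totals in place of TMM factors, -0.52 without control 1, -0.35 without control 2 and -1.28 without IS 1.

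Although the 2 miRNAs are partners of 1 transcript, miR-143-3p had 149 times the counts of miR-145a-5p over all libraries. The ratio was 300, 190 and 101 in control 1 to 3 compared with 79.4, 186 and 561 in IS 1 to 3, the last resting on 2 counts of miR-145a-5p. In log2 the ratio was 7.42 ± 0.75 in control and 7.51 ± 1.27 in IS (SD, n = 3 each), a difference of 0.09 (exact two-sided permutation p = 1), which was -0.30 without control 3, -0.56 without IS 3 and -0.28 without control 3 and IS 2. How far cloning or alignment set this ratio was not tested.

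The arms of miR-145a were near balance in sum, with 74 counts of 5p and 56 of 3p over all libraries (5p share 56.9%, 95% Wilson interval 48.3 to 65.1%), but not in each library. The 5p share was 24.1% in control 1 (12.2 to 42.1%), 71.1% in control 3 (56.6 to 82.3%) and 83.3% in IS 1 (60.8 to 94.2%), and in the other 3 the interval spanned equal shares. The 3p arm had 22, 12 and 13 counts in control 1 to 3, against 3, 5 and 1 in IS 1 to 3, or 81.4, 51.0 and 29.9 CPM against 20.1, 15.8 and 7.95 CPM. All 3 IS values of miR-145a-3p lay below all 3 control values. Of the 250 rows with 30 or more counts in all, 4 (1.6%) had groups that did not overlap, in either direction. The pooled IS level was 0.304 times the pooled control level (exact 95% interval 0.131 to 0.628, counting error only), but this arm did not pass the filter on low counts. Fitted without a filter, the log2 fold change was -1.76 (SE 1.66, edgeR adjusted p = 0.886).

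Among the fibroblast miRNAs, miR-199a-3p was the most abundant and was set apart by control 3. It stood at 1213, 1365 and 4145 CPM in control 1 to 3 compared with 891, 2061 and 1090 CPM in IS 1 to 3. Control 3 and IS 2 were the highest of their groups, and the other 4 libraries lay between 891 and 1365 CPM. The log2 fold change was -0.63 (SE 0.59, 95% interval -1.94 to 0.67, edgeR adjusted p = 0.996). It was 0.05 without control 3 and -0.57 without control 3 and IS 2.

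The 5p arm did not follow the 3p arm closely. Levels of miR-199a-5p were 174, 455 and 514 CPM in control 1 to 3, against 201, 454 and 581 CPM in IS 1 to 3, with library 1 the lowest of each group. Here the log2 fold change was 0.13 (SE 0.59, 95% interval -1.16 to 1.43), with values of -0.43 without control 1, -0.05 without IS 2 and -0.29 without IS 3. The related arm miR-199b-5p had 3 counts in control 3 and 0 elsewhere.

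The arms of miR-199a were less one-sided than those of miR-126a. The 3p share of both arms was 87.5, 75.0 and 89.0% in control 1 to 3, against 81.6, 82.0 and 65.2% in IS 1 to 3. The lowest share, that of IS 3 (95% Wilson interval 58.6 to 71.4%), lay below the intervals of all other libraries, although its own interval overlapped that of control 2, which began at 70.7%. The log2 ratio of 3p to 5p was 2.46 ± 0.77 in control and 1.74 ± 0.72 in IS (SD, n = 3 each). The difference of -0.72 gave an exact two-sided permutation p of 0.3.

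The least abundant member was miR-214-3p, with 3, 8 and 20 counts in control 1 to 3, against 0, 5 and 1 in IS 1 to 3. In CPM it stood at 11.1, 34.0 and 45.9 in control, and at 15.8 and 7.95 in IS 2 and IS 3. IS 2 lay above control 1, so the groups overlapped, and the 0 of IS 1 allows up to 20.1 CPM. Pooled over libraries, 31 counts in control and 6 in IS gave an IS level of 0.308 times that of control (exact 95% interval 0.105 to 0.748, counting error only). It did not pass the filter on low counts, and a fit without it gave a log2 fold change of -1.64 (SE 2.12, edgeR adjusted p = 0.902). Its other arm, miR-214-5p, had 15 counts in control and 7 in IS, and over all libraries the 3p share was 62.7% (95% Wilson interval 49.95 to 73.9%).

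The ratio of miR-199a-5p to its cluster partner miR-214-3p rested on few counts, and whether it differed between the groups was not settled. The ratio of miR-199a-5p to miR-214-3p was 15.7, 13.4 and 11.2 in control 1 to 3, and 28.8 and 73.0 in IS 2 and IS 3. For IS 1, with 30 counts against 0, it was 10 with the 0 set to 3 counts. The log2 ratio, with 0.5 added to each count, was 3.63 ± 0.16 in control and 5.42 ± 0.63 in IS (SD, n = 3 each), a difference of 1.79. The exact two-sided permutation p was 0.1, the smallest possible, and 0.7 after adjustment over the 7 ratios. With the 0 set to 3 counts, the other counts kept and no 0.5 added in any library, the difference was 1.05. The groups then overlapped and p was 0.4 (exact permutation).

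Ratios between the miRNAs of these cell types need no scaling of the libraries. They showed the clearest pattern among the members, one that ran across the treatment. The endothelial count was the sum of both miR-126a arms, and the smooth muscle count that of miR-143-3p and miR-145a-5p. The fibroblast count was that of both miR-199a arms and miR-214-3p. These names stand for the miRNAs only, and the cells that the reads came from were not tested. The endothelial to fibroblast ratio was 13.9, 13.2 and 1.92 in control 1 to 3 compared with 12.3, 1.91 and 15.8 in IS 1 to 3. Thus 4 libraries lay between 12.3 and 15.8 while control 3 and IS 2 were nearly equal. As a share of both classes, the miR-126a reads made up 65.8% in control 3 (95% Wilson interval 64.6 to 67.0%). The share was 65.6% in IS 2 (63.7 to 67.5%), against 92.5 to 94.0% in the other 4 libraries.

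Between the groups this ratio hardly moved. Its log2 value was 2.82 ± 1.62 in control and 2.84 ± 1.66 in IS (SD, n = 3 each), a difference of 0.02 (exact two-sided permutation p = 1). The sign turned to -0.91 without control 3, -0.36 without IS 1 and -0.54 without IS 3. Without control 3 and IS 2 the difference was 0.04, with the remaining libraries between 3.62 and 3.98 in log2.

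The same 2 libraries were lowest in the other cell-type ratios of their groups. The endothelial to smooth muscle ratio was 2.49, 3.02 and 1.21 in control 1 to 3 compared with 1.66, 1.03 and 2.96 in IS 1 to 3, a difference in log2 of -0.28 (exact two-sided permutation p = 0.7) that was 0.09 without IS 2. The smooth muscle to fibroblast ratio was 5.57, 4.37 and 1.60 in control 1 to 3 compared with 7.40, 1.86 and 5.33 in IS 1 to 3, a difference of 0.30 (exact two-sided permutation p = 0.6) that was -0.24 without control 3 and -0.11 without IS 1. After adjustment over the 7 ratios the p-values of all but the miR-199a-5p to miR-214-3p ratio were 1.

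**Figure D2:**
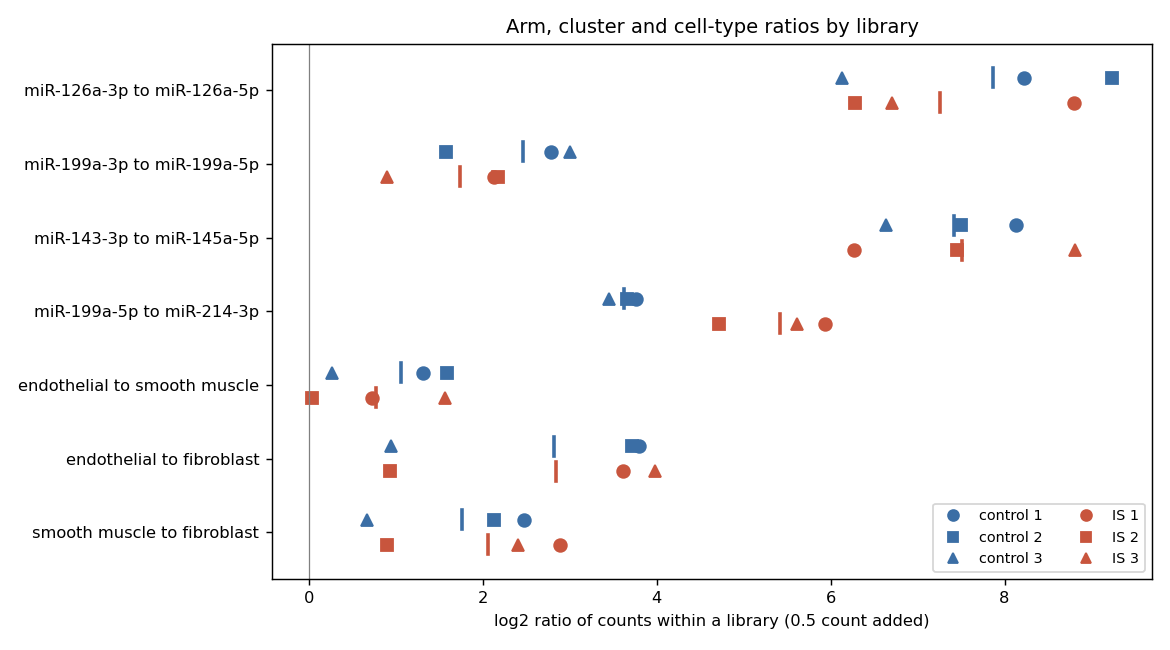
Log2 ratio of counts within each library (horizontal axis, 0.5 added to each count) for the 7 ratios, with 1 point per library and a bar at each group mean. In the endothelial to fibroblast row control 3 and IS 2 sit together at 0.94 and 0.93. The other 4 libraries lie far off at 3.62 to 3.98. The miR-199a-5p to miR-214-3p row has 37 counts of miR-214-3p in all. Its groups separate with 0.5 added to each count. They overlap with the 0 of IS 1 set to 3 counts and no 0.5 added.

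Other cell type miRNAs differed in the same 2 libraries. The summed level of 6 leukocyte miRNAs, led by miR-142a-5p, a miRNA of the blood cell lineages, was 10735, 6003 and 22167 CPM in control 1 to 3 compared with 11360, 26670 and 7707 CPM in IS 1 to 3. The 4 red cell miRNAs, led by miR-451a, summed to 114850, 93435 and 186873 CPM in control and 120628, 223132 and 148261 CPM in IS. Both sums were thus highest in control 3 and IS 2. The leukocyte sum was mostly miR-142a-5p (20128 of 22167 CPM in control 3). Its members miR-142a-3p (733 and 1106 CPM), miR-150-5p (836 and 1094 CPM) and miR-155-5p (312 and 350 CPM) were also highest in control 3 and IS 2. The remaining members did not follow the sum. Chosen after their values were seen, miR-223-3p was lowest in IS 2 (18.9 CPM) and at 68.9 CPM in control 3, within the 29.6 to 255 CPM of the others, and miR-342-3p was lowest in control 3 (89.6 CPM). The sum of 4 platelet-associated miRNAs, led by miR-191-5p and sharing miR-223-3p with the leukocyte list, was lowest in control 3 and IS 2, with 4698 and 3615 CPM against 5996 to 8817 CPM in the rest. No leukocyte marker was at 0 in all libraries, and miR-155-5p was at 0 in IS 1. All 6 leukocyte, all 4 red cell and all 3 striated muscle miRNAs were tested and had log2 fold changes above 0 (medians 0.30, 0.37 and 1.55), the platelet list had 2 above and 2 below (median 0.03) and the liver list 1 of each (median -0.01), with 0 past the edgeR threshold in any list. The part of these cell types, or of depth, in the vessel wall ratios was not tested, and control 3 and IS 2 were also the 2 deepest libraries.

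**Figure D3:**
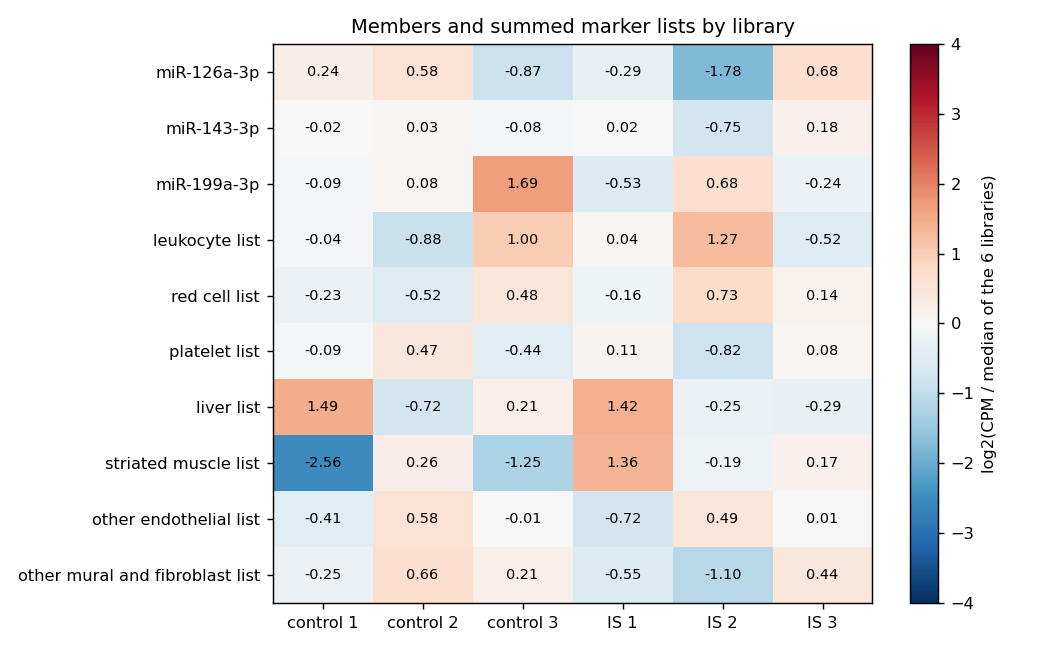
Log2 of the level over the median of the 6 libraries, for 3 members and for the summed CPM of marker lists, by library. In control 3 and IS 2 miR-126a-3p is at -0.87 and -1.78 and miR-199a-3p at 1.69 and 0.68, beside 1.0 and 1.27 for the leukocyte list; the liver and striated muscle lists have other extremes.

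The study's comparison asks which miRNAs change when the cells are stimulated with IS, and no member passed the threshold used here, an edgeR adjusted p of 0.05. Of the 7 sets of reads, 6 passed the filter on low counts, all but miR-214-3p. Of these 6, 0 were called, where 0 of the 206 miRNAs tested (0%) were, and 0 had an unadjusted p under 0.05, where 3 of 206 (1.46%) did. The 206 are rows with repeats kept, and of those 3 rows miR-1a-3p and miR-1b-5p held the same count in every library. DESeq2 and limma called 0 members as well. The log2 fold changes lay above 0 in 3 and below 0 in 3, from -0.63 to 0.39, with a median of 0.02, the same as over all 206 miRNAs. In 0 of the 6 did the groups not overlap, against 3 of 206 (1.46%). The 95% intervals reach about 1 on either side in log2 for miR-143-3p and past 2 for miR-145a-5p, so the data do not show that the levels were alike.

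**Figure D4:**
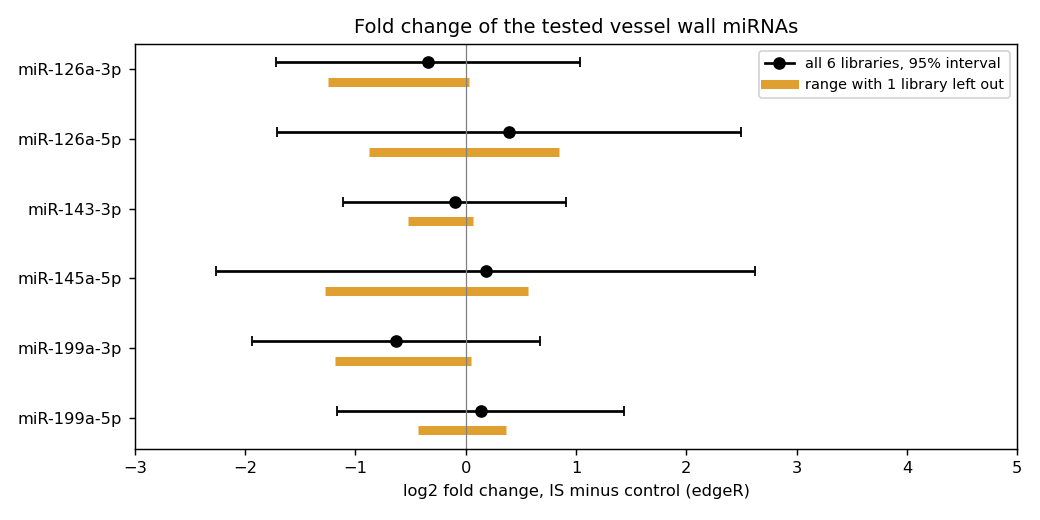
Log2 fold change (IS minus control, edgeR) of the 6 tested sets of reads, with 95% intervals, and below each the range of values with 1 library left out. Every interval spans 0 and every range reaches both sides of it.

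Among the further miRNAs linked to the vessel wall, 0 of 5 endothelial and 0 of 6 tested smooth muscle and fibroblast miRNAs passed the edgeR threshold. The endothelial list had 1 log2 fold change above 0 and 4 below, with a median of -0.19. Its 3 most abundant members were miR-221-3p (2198 ± 1418 CPM in the control group, 3134 ± 3283 CPM in the IS group), miR-92a-3p (1986 ± 1538 and 1486 ± 701 CPM) and miR-222-3p (1870 ± 1941 and 1018 ± 521 CPM), with SD and n = 3 in each group. The partners miR-221-3p and miR-222-3p, which share a seed family and restrain growth of endothelial cells, had log2 fold changes of 0.62 (SE 0.75) and -0.88 (SE 0.68). The smooth muscle and fibroblast list had 2 above 0 and 4 below, with a median of -0.24. It was led by miR-21a-5p, a miRNA of fibrosis that blood cells also express (40660 ± 13455 and 27968 ± 16772 CPM), miR-100-5p (1510 ± 414 and 1304 ± 271 CPM) and miR-29a-3p (857 ± 596 and 855 ± 689 CPM). The summed endothelial list did not show the pattern of miR-126a-3p, being 7254 CPM in control 3 and 10223 CPM in IS 2, against 4410 to 10900 CPM in the rest. Its member miR-10a-5p, singled out after its values were seen, did show it, with 815 CPM (control 3) and 470 CPM (IS 2) against 1300 to 2028 CPM in the rest. The most abundant member, miR-221-3p, went the other way, with 3835 CPM (control 3) and 6924 CPM (IS 2) against 1173 to 1417 CPM in the rest. The list's other members were neither lowest nor highest in both of these libraries. The summed smooth muscle and fibroblast list was lowest in IS 2 (17263 CPM), while control 3 (42674 CPM) lay within the 25248 to 58329 CPM of the others.

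Correlations over the 6 libraries were computed for 6 pairs of members on log2(CPM + 1). Only miR-126a-3p and miR-143-3p moved together past an adjusted p of 0.05, with Pearson r = 0.889 (exact permutation p = 0.00694, adjusted 0.0417) and Spearman rho = 0.943 (exact permutation p = 0.0167, adjusted 0.1). Without control 3 and IS 2, the libraries farthest from the median of miR-126a-3p, r was 0.583, and with TMM-scaled levels it was 0.80 (adjusted exact permutation p = 0.229) and -0.51 without these libraries, so the relation rests on them. Partners and arms of 1 hairpin were not more alike: r was 0.139 for the arms of miR-126a, 0.499 for those of miR-199a, 0.120 for miR-143-3p with miR-145a-5p and 0.598 for miR-199a-5p with miR-214-3p, with adjusted exact permutation p from 0.436 to 0.879. For miR-126a-3p with miR-199a-3p r was -0.597, and 0.734 without control 3 and IS 2. All values of a library share its total, and the low arms hold few counts.

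Among 187 other tested miRNAs, those whose log2 levels over the 6 libraries were most like a member's were found by Pearson r, as a description. For miR-126a-3p they were miR-669c-5p (r = 0.976), miR-24-2-5p (0.975) and miR-381-3p (0.971). For miR-143-3p they were miR-382-3p (0.944), miR-379-5p (0.935) and miR-148a-3p (0.928), and for miR-199a-3p they were miR-378c (0.938), miR-30a-5p (0.937) and miR-1843b-5p (0.934). Levels of miR-378c were 1076, 1322 and 5842 CPM in control 1 to 3, against 791, 4853 and 1090 CPM in IS 1 to 3, so it too was highest in control 3 and IS 2. In contrast miR-669c-5p was lowest in those libraries, at 165 and 66.2 CPM against 382 to 724 CPM in the rest.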

How the data were processed

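Vesicle RNA was purified with the exoRNeasy Maxi kit and sequenced from NEBNext small RNA libraries, per the labels' protocols. The submitters' processing notes name CASAVA 1.8 and Bowtie. No source used here names a genome build, miRBase release, filter or use of strand. What the authors deposited is 1 table with a read count for each miRNA and library, and a TPM value that equals the count over the library total times 1000000 (largest difference 4.8e-10), called CPM here.

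Counts were tested with the edgeR quasi-likelihood F test (edgeR 4.0.16, R 4.3.3, TMM factors, filterByExpr with minimum count 10 and minimum total 15, group as the only term), with Benjamini-Hochberg adjustment over all 206 miRNAs kept (99.7% of counts). The SE is the fold over the square root of F. Ratios had 0.5 count added and were compared between groups with exact two-sided permutation tests. Poisson intervals and the ratio of pooled counts are exact, and shares have Wilson intervals, at 95%. Alternatives included DESeq2 1.42.0 and limma 3.58.1. Scripts (Python 3.11.15, scipy 1.17.1) were tested on simulated data. The simulated counts scattered less than these data, whose common biological coefficient of variation in edgeR was 68.1%. That test therefore does not show which changes could be called here.

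The members, lists and ratios were chosen with earlier results of these data known. The naming rule covered all members, the other arms and paralogues of their hairpins, the 3 tested miRNAs most like each of miR-126a-3p, miR-143-3p and miR-199a-3p, and up to 3 abundant miRNAs of each list. The lists with no vessel wall role were 6 leukocyte, 4 platelet, 4 red cell, 2 liver and 3 striated muscle miRNAs.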

Additional observations from a re-analysis of the deposited data

How the results depend on the processing

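The count of members past the edgeR threshold was 0, and that of all miRNAs 0, under every alternative run: RLE factors, library totals, no filter, 10 CPM in 3 libraries, the replicate number as a block, 1 library left out at a time, control 3 and IS 2 left out, repeated rows left out, DESeq2 and limma. Unadjusted p-values under 0.05 numbered 0 to 4 in the filtered edgeR fits, 13 without a filter and 14 with DESeq2. Leaving out control 3 and IS 2 together, and setting the 0 of miR-214-3p to 3 counts, were chosen after the data were seen. miR-199b-3p could not be added to miR-199a-3p, so that alternative was not run.

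With 1 library left out and scaling refitted, the log2 fold change ran from -1.25 to 0.031 for miR-126a-3p, -0.87 to 0.84 for miR-126a-5p and its repeat miR-126b-3p, -0.53 to 0.064 for miR-143-3p, -1.28 to 0.56 for miR-145a-5p, -1.18 to 0.050 for miR-199a-3p and -0.43 to 0.36 for miR-199a-5p. With filter and scaling kept the ranges were -0.76 to 0.064, -0.62 to 0.83, -0.35 to 0.11, -1.15 to 0.64, -1.13 to 0.024 and -0.14 to 0.39, and within them the sign also turned for miR-143-3p (0.044) and miR-145a-5p (-0.023) without control 1 and for miR-199a-5p without IS 2 (-0.023) or IS 3 (-0.0042). Differences in log2 ratio ran from -1.47 to 0.085 (miR-126a arms), -1.16 to -0.30 (miR-199a arms), -0.56 to 0.71 (miR-143-3p to miR-145a-5p), 1.54 to 2.15 (miR-199a-5p to miR-214-3p), -0.68 to 0.089 (endothelial to smooth muscle), -0.91 to 0.98 (endothelial to fibroblast) and -0.24 to 0.89 (smooth muscle to fibroblast).

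The log2 fold change of miR-145a-5p also turned to -0.024 with library totals, -0.25 with the replicate block, and -0.32 and -0.33 with limma on log2(TPM + 1) and log2(TPM + 0.5). The miR-143-3p to miR-145a-5p difference was -0.28 without control 3 and IS 2. Also without both, the differences were -0.98 (miR-126a arms), -0.67 (miR-199a arms) and 2.06 (miR-199a-5p to miR-214-3p). They were -0.31 (endothelial to smooth muscle) and 0.35 (smooth muscle to fibroblast). The log2 fold change of miR-126a-5p was then 1.03. With TMM-scaled levels the correlation of the miR-126a arms was -0.051, and that of miR-126a-3p with miR-143-3p fell short of the threshold at 0.80. The cause was not tested. Same-numbered libraries had correlations of 0.31, -0.33 and -0.05 between their deviations from the group means, so the numbers were not taken as pairs, and no call changed with the block. In all, 39 of the alternative values took the other sign. The 233 values marked as unchanged include counts of calls, which have no sign, and the repeat miR-126b-3p. For the ratios the permutation p could not fall below 0.05, and the block left their differences as they were. The 233 therefore do not measure how firm the results are. The few counts of miR-145a and miR-214-3p limit what depth can show there.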
